A study of Mus musculus with 11 samples.

Results

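Accessible chromatin was examined at 9 genes of the osteocyte dendrite and of mechanosensing: Pdpn, Cd44, Gja1, Panx1, Panx3, Piezo1, Piezo2, Pkd1 and Mef2c. A region belonged to a gene when it overlapped the gene or the 20 kb before its start, and 68 of the 94963 regions in the deposited list did. The cells were MPC2, a conditionally immortalised mesenchymal progenitor clone from mouse that divides at 33 °C and differentiates at 37 °C in osteogenic medium. Of the 11 ATAC-seq samples, 3 were undifferentiated cells (MSC) with vehicle, 3 were MSC with FG-4592, 2 were osteocytes with vehicle and 3 were osteocytes with FG-4592. Osteocyte cultures had differentiated for 3 weeks, and cells with drug had received FG-4592 (Roxadustat), an inhibitor of HIF prolyl hydroxylases, for 48 hours at 50 uM. All cultures derive from 1 clone, and the list gives 1 level per region, read from its values as an average log2 CPM over samples. The list does not name the samples behind a region, nor say whether a library that the authors removed contributed. Levels of single samples, and with them every contrast of drug or differentiation, were not analysed here. No replicate error can therefore be attached to a level, and the depth of each sample is unknown. Every comparison that follows is a description against other genes or other regions of the same list.

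Osteocytes are the cells embedded in bone, and they contact each other through long dendrites that run in narrow canals. Load moves fluid through these canals, and stretch-activated channels, integrins and the primary cilium are among the sensors on which the cell relies. Gap junctions and pannexin channels pass small molecules and ATP between cells and out of them. Transposase cuts DNA most readily where nucleosomes are displaced, so an ATAC-seq region marks a candidate promoter or enhancer in at least some of the cells, and its presence does not measure transcription.

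The number of regions ran from 1 at Pdpn to 17 at Piezo1. Piezo1 had more regions than 98.8% of coding genes of similar length, Pkd1 more than 92.0% and Gja1 more than 89.4%. Pdpn had more than 13.2% and Mef2c more than 18.7%, and neither had a region at the 5′ end of its gene record. At Pkd1, 1 promoter region at a level of 6.90 held 71.8% of the summed signal, whereas at Piezo1 the signal was spread over the promoter, the first intron and the upstream flank, with 28.6% of it in a region at the start of the neighbouring gene Cdt1.

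**Figure D1:**
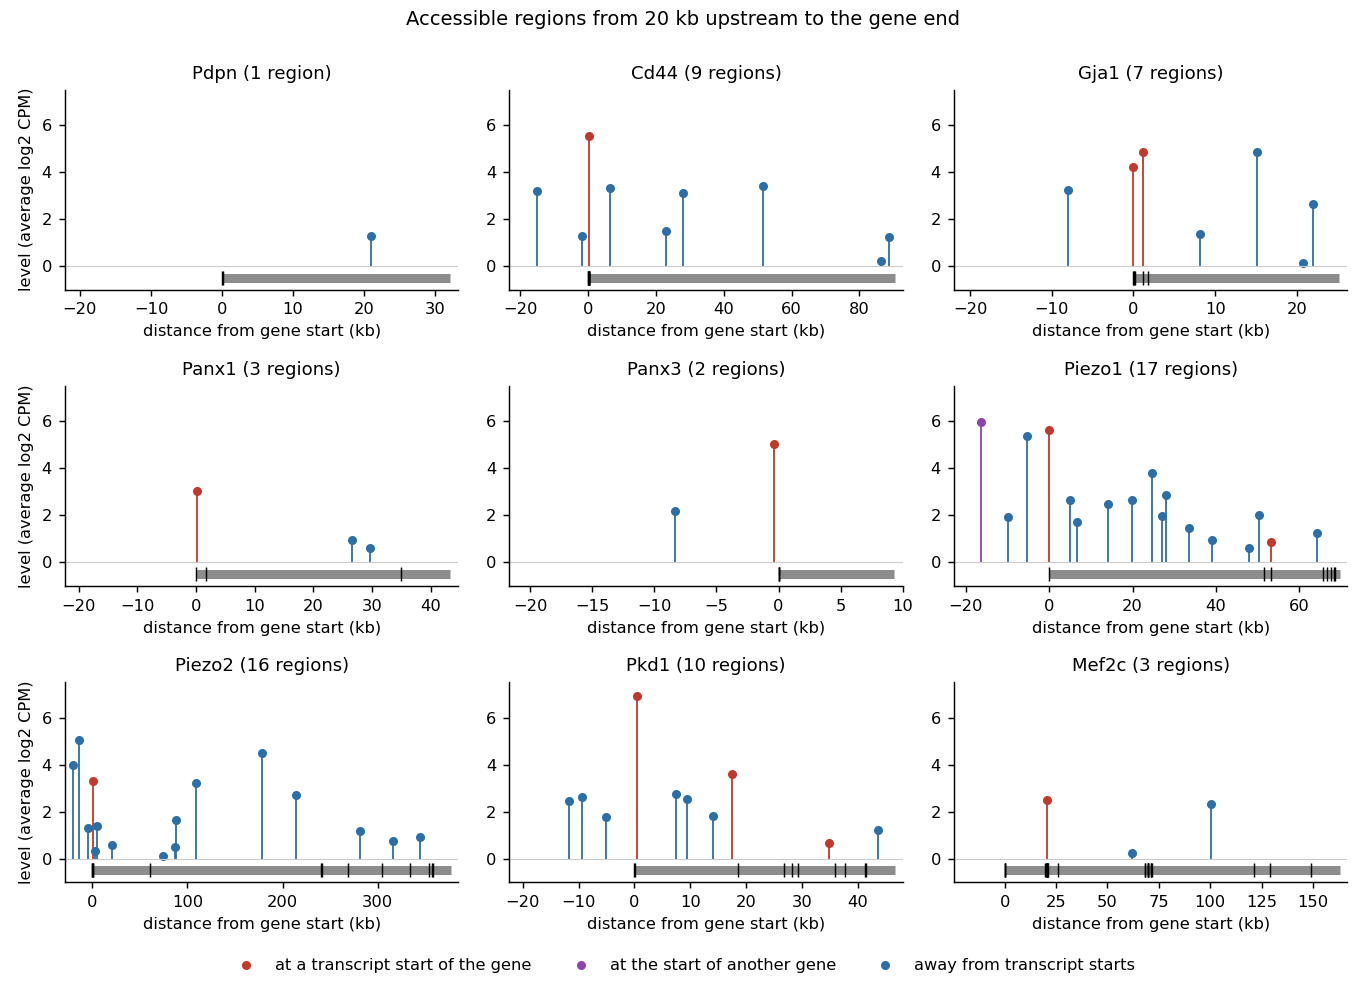
Each panel is 1 gene; the horizontal axis is the distance of the region's midpoint from the gene start in kb (negative is upstream) and the vertical axis is the region's level, the average log2 CPM. Grey bars mark the gene and black ticks its annotated transcript starts; Pdpn has 1 region, deep in the gene, while Piezo1 has 17 and the highest promoter level, 6.90, is at Pkd1.

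Sequence from the regions away from transcript starts shows what the counted motifs look like at 8 of the genes; none is shown for Piezo2. The window lies in the highest such region that holds an AP-1 site or, at a gene without one there, a TEAD site, which need not be the highest region of the gene. It has 60 bases on either side of the match, which is in capitals. At Pdpn, Panx1, Piezo1, Pkd1, Cd44 and Mef2c the match is an AP-1 site (TGAGTCA or TGACTCA), bound by Fos and Jun dimers. At Gja1 and Panx3 it is a TEAD site (GGAATG, or CATTCC on the opposite strand), bound by the partners of Yap1. Sequences are from the mm10 assembly and are written 5′ to 3′ along the strand of the gene.
Pdpn, chr4:143278465-143278591, minus strand: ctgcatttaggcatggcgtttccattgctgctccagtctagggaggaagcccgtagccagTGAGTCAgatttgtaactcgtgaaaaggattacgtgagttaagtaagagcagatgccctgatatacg
Cd44, chr2:102894880-102895006, minus strand: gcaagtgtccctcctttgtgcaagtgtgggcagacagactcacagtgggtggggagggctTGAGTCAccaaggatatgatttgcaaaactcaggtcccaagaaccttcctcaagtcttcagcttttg
Gja1, chr10:56392907-56393032, plus strand: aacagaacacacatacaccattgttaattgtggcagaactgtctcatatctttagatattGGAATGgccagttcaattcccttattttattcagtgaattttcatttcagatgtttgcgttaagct
Panx1, chr9:15018917-15019043, minus strand: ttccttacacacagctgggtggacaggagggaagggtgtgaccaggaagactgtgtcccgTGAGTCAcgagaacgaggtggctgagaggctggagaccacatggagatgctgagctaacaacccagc
Panx3, chr9:37677375-37677500, minus strand: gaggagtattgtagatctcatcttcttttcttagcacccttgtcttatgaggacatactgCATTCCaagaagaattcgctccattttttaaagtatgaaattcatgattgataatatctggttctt
Piezo1, chr8:122537337-122537463, minus strand: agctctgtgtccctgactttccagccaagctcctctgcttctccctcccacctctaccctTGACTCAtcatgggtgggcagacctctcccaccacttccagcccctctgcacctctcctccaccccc
Pkd1, chr17:24537783-24537909, plus strand: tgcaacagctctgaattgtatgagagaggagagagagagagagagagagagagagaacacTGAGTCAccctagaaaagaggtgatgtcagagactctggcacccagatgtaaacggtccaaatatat
Mef2c, chr13:83604415-83604541, plus strand: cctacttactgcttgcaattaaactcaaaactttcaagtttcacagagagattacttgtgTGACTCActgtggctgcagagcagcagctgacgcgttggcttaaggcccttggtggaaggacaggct

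The 250 bases before the 5′ end of the gene record are shown for 5 genes in which they held one of the motifs. Capitals mark an AP-1 site at Gja1, RUNX sites (TGTGGTT or AACCACA) at Panx1, a TEAD site at Mef2c, and a core of the hypoxia response element (HRE; ACGTG or GCGTG on either strand) at Pdpn and Cd44. The Gja1 and Panx1 windows each hold an HRE core as well, left in lower case. At Pdpn the HRE core is the palindrome CACGTG. Of 32851 mouse promoter windows of the same length in RefSeq (GRCm38), 4.46% held an AP-1 site, 4.40% a RUNX site, 12.6% a TEAD site and 38.6% an HRE core. As the 5 windows were chosen for holding a match, the number of them with a motif cannot be set against these shares.
Pdpn, chr4:143299565-143299814, minus strand: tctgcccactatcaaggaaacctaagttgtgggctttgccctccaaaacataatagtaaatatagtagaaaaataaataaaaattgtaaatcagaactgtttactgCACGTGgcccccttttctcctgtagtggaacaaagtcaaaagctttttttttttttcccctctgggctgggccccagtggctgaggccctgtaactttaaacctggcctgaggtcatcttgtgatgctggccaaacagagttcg
Cd44, chr2:102901666-102901915, minus strand: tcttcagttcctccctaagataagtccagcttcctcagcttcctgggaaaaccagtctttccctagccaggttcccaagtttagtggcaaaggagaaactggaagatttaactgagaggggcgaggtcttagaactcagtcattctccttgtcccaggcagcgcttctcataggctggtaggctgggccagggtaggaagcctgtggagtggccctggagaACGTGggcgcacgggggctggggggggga
Gja1, chr10:56377080-56377329, plus strand: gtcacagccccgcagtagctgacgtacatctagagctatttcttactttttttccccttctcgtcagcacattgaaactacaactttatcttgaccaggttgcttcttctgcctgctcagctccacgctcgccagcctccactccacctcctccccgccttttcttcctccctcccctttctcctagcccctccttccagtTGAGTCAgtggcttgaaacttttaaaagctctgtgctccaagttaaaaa
Panx1, chr9:15045479-15045728, minus strand: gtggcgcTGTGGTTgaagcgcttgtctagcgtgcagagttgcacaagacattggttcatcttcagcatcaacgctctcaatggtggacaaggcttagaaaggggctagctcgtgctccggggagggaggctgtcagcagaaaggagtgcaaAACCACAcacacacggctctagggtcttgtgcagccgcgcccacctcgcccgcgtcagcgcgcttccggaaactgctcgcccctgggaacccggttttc
Mef2c, chr13:83503784-83504033, plus strand: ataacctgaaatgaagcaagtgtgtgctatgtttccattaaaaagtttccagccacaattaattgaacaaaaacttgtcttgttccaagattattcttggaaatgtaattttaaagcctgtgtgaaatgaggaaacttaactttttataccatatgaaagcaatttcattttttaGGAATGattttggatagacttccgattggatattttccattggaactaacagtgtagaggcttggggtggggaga

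The windows before Gja1, Panx1 and Cd44 lie at least in part inside an accessible region, and those before Pdpn and Mef2c do not. A match describes letters in the window and is not evidence that a factor was bound.

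Pdpn encodes podoplanin (E11), a membrane glycoprotein of the early osteocyte dendrite. The gene spans chr4:143267431-143299564 on the minus strand. Its only region, chr4:143278444-143278817, was 374 bp wide, lay in intron 1 at 20934 bp past the gene start and had a level of 1.29. That level was higher than 22.2% of 8859 regions of similar width (within 10%) away from starts, and the region held 1 AP-1, 1 TEAD and 1 HRE match. Neither annotated Pdpn start had a region within 1000 bp, and the nearest region edge was 20747 bp away. No region lay in the 100 kb upstream either, a stretch that also holds Lrrc38 and Pramel1, and the next region began 112695 bp before the gene start. Of all coding genes, 14.9% likewise had no region in the 100 kb before their start. The uncovered stretch around the Pdpn start was 133441 bp, and 2.74% of the gaps between neighbouring regions in the list were at least as long.

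Cd44 encodes the hyaluronan receptor, a surface glycoprotein found along osteocyte processes. The gene spans chr2:102811141-102901665 on the minus strand and had 9 regions, against a median of 6 in 1276 genes of similar length, of which 69.7% had fewer. The promoter region, chr2:102900522-102902086, was 1565 bp wide, covered exon 1 and part of intron 1, and had a level of 5.52, higher than the start level of 67.3% of the coding genes that had one and than 45.6% of promoter regions of similar width. All 8 annotated Cd44 starts fell within 1000 bp of it.
Upstream, a 650 bp region at 15088 bp before the start had a level of 3.21 and a 200 bp region at 1870 bp before the start had a level of 1.29. In intron 1, a 775 bp region at 6419 bp had a level of 3.32, a 347 bp region at 22831 bp a level of 1.48 and a 1060 bp region at 28091 bp a level of 3.11, and each of these 3 held 1 AP-1 site. The highest Cd44 region away from the start was in intron 5, chr2:102849922-102850469, with a level of 3.42, higher than 93.0% of regions of similar width, and it held none of the 8 motifs. Near the 3′ end, a 200 bp region in intron 18 had a level of 0.23 and a 280 bp region in the last exon a level of 1.24. Cd44 thus carried its signal at the promoter, which held 49.2% of the summed CPM, and at a handful of sites of intermediate level.

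Gja1 encodes connexin 43, the main gap junction protein of osteocytes. The gene spans chr10:56377330-56402513 on the plus strand and had 7 regions against a median of 3 in 2483 genes of similar length. They covered 15.9% of the stretch examined, and the number of bases covered was larger than in 99.2% of the similar genes. By bases covered, Gja1 ranked above the other 8 genes in this comparison.
All 6 annotated Gja1 starts had a region. The first, chr10:56377001-56377592, spanned the 5′ end and had a level of 4.23, higher than 93.4% of 1344 promoter regions of similar width. The second, chr10:56377745-56379311, lay in intron 1 of the main transcript at internal starts and had a level of 4.85, higher than 17.6% of promoter regions of similar width. The AP-1 site printed above lies 46 bases before the gene start, inside the first of them.
The widest region of the 9 genes was also at Gja1. It was 2561 bp wide, at chr10:56391183-56393743, beyond the end of the main coding transcript (56390415) but inside an intron of longer annotated ones. Only 52 of the 94963 regions were as wide or wider, and 9 of those lay away from transcript starts. Its level was 4.85, below each of the 23 regions of similar width away from starts, whose median was 5.58. Farther along, a 1141 bp region at 21946 bp had a level of 2.66, higher than 0.915% of regions of similar width, and a 200 bp region at 20695 bp a level of 0.15. A narrow region at 8136 bp in intron 1 had a level of 1.34, and an 883 bp region at 8077 bp upstream was higher than 42.3% of regions of similar width. In all, 5 of the 7 Gja1 regions were below the middle of regions of similar width.

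Panx1 and Panx3 encode pannexins, which form ATP-permeable channels, and Panx3 is known from osteoblast and chondrocyte differentiation. Panx1 spans chr9:15002128-15045478 and Panx3 chr9:37659902-37669235, both on the minus strand. Panx1 had 3 regions against a median of 4 in 2008 genes of similar length. Its promoter region, chr9:15044971-15045712, covered exon 1 and had a level of 3.03, above the start level of 17.2% of coding genes. A 241 bp region with a level of 0.94 and a 211 bp region with a level of 0.63 lay in intron 2, the first with an AP-1 site and the other with a CTCF match. The internal Panx1 starts had no region.
Panx3 had 2 regions against a median of 2 in 2250 genes of similar length. Its promoter region, chr9:37668912-37670238, was 1327 bp wide and had a level of 5.05. That level was above the start level of 50.4% of coding genes, and the region held 87.9% of the gene's summed CPM. The other region, chr9:37677255-37677915, lay 8350 bp upstream with a level of 2.19. The level of the Panx3 promoter region was 2.02 higher on the log2 scale than that of the Panx1 region, which was narrower at 742 bp. Against promoter regions of similar width they stood close together, Panx3 above 36.6% and Panx1 above 32.4%.

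Piezo1 and Piezo2 encode mechanically gated cation channels, and Piezo1 is the one known for load sensing in bone cells. Piezo1 spans chr8:122481698-122551329 on the minus strand. Its 17 regions compared with a median of 5 in 1534 genes of similar length, of which 18 had as many or more and the highest had 22. The summed CPM of Piezo1, 217.4, was larger than in 97.1% of those genes, and it was 155.3 without the 62.1 CPM of the region at the start of Cdt1. A coding readthrough gene, Gm20388, overlaps the whole locus, so the regions cannot be assigned to Piezo1 alone.
The Piezo1 promoter region, chr8:122550715-122551872, had a level of 5.63, above the start level of 70.9% of coding genes and 76.2% of promoter regions of similar width, and held 8 HRE cores. Of the 8 annotated starts, 2 had a region: this one and an internal start of a noncoding transcript, where a 208 bp region in exon 15 had a level of 0.87. The highest region in the Piezo1 stretch, chr8:122566917-122568353 with a level of 5.96, lay 16306 bp upstream at the start of Cdt1, a DNA replication licensing gene. It was the only one of the 68 regions at the start of another gene.
At 5260 bp upstream, chr8:122556037-122557142 had a level of 5.37, higher than 95.5% of regions of similar width, and held 3 RUNX sites and 2 HRE cores. It was the highest region away from transcript starts at any of the 9 genes. The midpoints of 8 regions lay in intron 1, which is 37165 bp long. Of these, a 941 bp region at 24735 bp had a level of 3.78, a 564 bp region at 27911 bp a level of 2.85 and a 334 bp region at 5034 bp a level of 2.67, the last higher than 96.6% of regions of similar width. The remaining 10 Piezo1 regions were 216 to 660 bp wide with levels from 0.59 to 2.63.

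Piezo2, better known from touch and proprioception, spans chr18:63010213-63387183 on the minus strand and is the longest of the 9 genes. Its 16 regions compared with a median of 9 in 283 genes of similar length, with 62.9% of these having fewer. Per 10 kb, Piezo2 had 0.403 regions and Piezo1 had 1.90, so the count per length at Piezo1 was 4.71 times that at Piezo2. The Piezo1 count includes the region at the start of Cdt1. Count per length also differed between genes of the 2 lengths, with medians of 5 regions beside the 89632 bp of Piezo1 and 9 beside the 396971 bp of Piezo2. The Piezo2 promoter region, chr18:63386363-63387362, had a level of 3.31, higher than 8.75% of promoter regions of similar width and than the start level of 19.7% of coding genes. Of the 13 annotated starts, the 4 nearest the 5′ end had a region and the internal ones had none.
Piezo2 regions away from the start reached higher levels than its promoter. The highest, 13881 bp upstream inside the noncoding gene Gm26972, was 1223 bp wide at a level of 5.02, above 84.3% of regions of similar width, and held 1 AP-1, 3 TEAD and 2 RUNX sites. A 1030 bp region at 20115 bp upstream by its midpoint had a level of 3.96. Inside the gene, a 1597 bp region in intron 3 had a level of 4.49, a 711 bp region in intron 2 a level of 3.21 and a 624 bp region in intron 4 a level of 2.71. The remaining 10 regions were 200 to 327 bp wide with levels from 0.13 to 1.62. Piezo1 and Piezo2 were alike in the number of regions and differed in the promoter level by 2.32 on the log2 scale.

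Pkd1 encodes polycystin 1, a large membrane protein of the primary cilium that has been linked to load sensing in osteocytes. The gene spans chr17:24549834-24596508 on the plus strand and had 10 regions against a median of 4 in 1901 genes of similar length. The promoter region, chr17:24549395-24551027, was 1633 bp wide and had a level of 6.90. It was higher than 95.2% of promoter regions of similar width and than the start level of 97.9% of coding genes. It held 6 HRE cores and none of the other motifs.
The other 9 Pkd1 regions were far lower. An 840 bp region over exons 7 and 8, near an internal start, had a level of 3.59, and a 229 bp region in intron 26, also near an internal start, a level of 0.65. In intron 1, regions of 528, 667 and 371 bp had levels of 2.76, 2.53 and 1.82. Upstream, regions of 630, 685 and 365 bp had levels of 2.62, 2.43 and 1.78 and lay in the antisense gene AC132367.1. A 278 bp region over exon 41 had a level of 1.22.

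Mef2c encodes a transcription factor that acts at the Sost enhancer in osteocytes. The gene spans chr13:83504034-83667080 on the plus strand and had 3 regions against a median of 8 in 742 genes of similar length. No region was within 1000 bp of its 3 outermost starts, and the nearest region was 20156 bp from the gene start. That region, chr13:83524190-83524944, lay among a cluster of internal starts, had a level of 2.49, and was higher than 7.79% of promoter regions of similar width. Through this region 11 of the 27 distinct Mef2c starts counted as covered. A 279 bp region in intron 2 at 61890 bp had a level of 0.23, higher than 0.731% of regions of similar width, and a 727 bp region in intron 4 at 100215 bp had a level of 2.32, higher than 10.8%. All 3 Mef2c regions were thus low for their width.
Both Mef2c regions away from starts held MEF2 matches, the motif of the protein that the gene itself encodes. These windows were chosen after the values were seen and are shown in mm10, plus strand, with the MEF2 matches in capitals. Across all regions away from starts, 5.70% held such a match.
Mef2c intron 2, chr13:83565965-83566034: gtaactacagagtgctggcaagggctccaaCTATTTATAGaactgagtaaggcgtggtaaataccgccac
Mef2c intron 4, chr13:83603945-83604014: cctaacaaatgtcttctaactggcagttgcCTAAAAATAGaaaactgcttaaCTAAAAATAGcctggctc

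Of the 9 genes, 8 had a region at a transcript start of their own (within 1000 bp), against 64.1% of the 21938 protein-coding genes. Among coding genes of similar length the share was higher for 8 of the 9, from 72.6% for Gja1 to 82.9% for Cd44, and it was 56.9% for Panx3. Counting only the 5′ end of the gene record gave 7, without Mef2c, against 59.1%. Starts rich in CpG (GC content of at least 55% and observed over expected CpG of at least 0.6 within 500 bp) were found at Panx1, Piezo1, Piezo2 and Pkd1. All 4 had a region, as did 90.3% of such starts in the genome. Of the 5 genes with CpG-poor starts, Gja1, Panx3 and Cd44 had one and Pdpn and Mef2c did not, against 39.8% of such starts. The order of promoter levels was Pkd1 at 6.90, Piezo1 at 5.63, Cd44 at 5.52, Panx3 at 5.05, Gja1 at 4.85, Piezo2 at 3.31, Panx1 at 3.03 and Mef2c at 2.49, beside a median of 5.03 over 14058 coding genes. Each is the highest level at any own start, which at Gja1 and Mef2c was at internal starts. These levels were not matched for region width. Without values per sample it cannot be said which neighbours in this order differ.

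All 9 genes had at least 1 region in the stretch examined, as did 79.5% of coding genes. The median share of similar-length genes with fewer regions was 62.9% over the 9, with a range from 13.2% at Pdpn to 98.8% at Piezo1, beside 43.5% over all coding genes. In 5 of the 9 the share was above 50% and in 2 above 90%, as it was in 42.8% and 7.91% of all coding genes. Restricting the comparison to coding genes that had a region at an own start gave a median of 54.4%. No share over all such coding genes was computed to set beside it. Pdpn, which has no such region, was still ranked there. The total fell to 34 regions when only those at least 500 bp wide were counted, and Pdpn then had none.

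**Figure D2:**
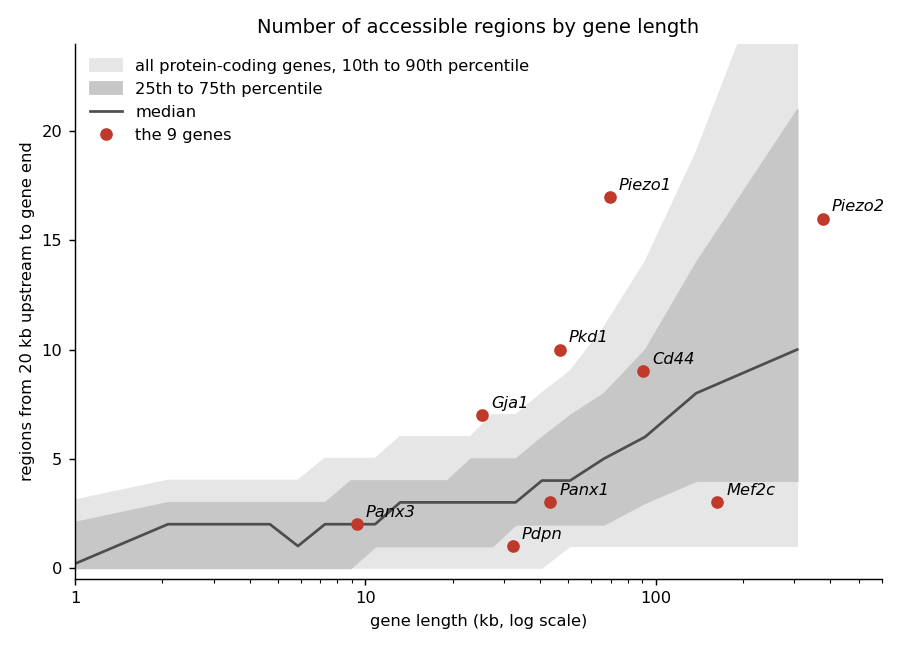
The horizontal axis is gene length in kb on a log scale and the vertical axis the number of regions from 20 kb upstream to the gene end; bands and line give percentiles over protein-coding genes in 20 bins of length, and red points are the 9 genes. Piezo1 (17), Pkd1 (10) and Gja1 (7) lie at or above the 90th percentile, while Pdpn (1), Panx1 (3) and Mef2c (3) lie below the median line; Piezo2 is longer than the median of the last bin.

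Of the 68 regions, 12 were at a start of the gene itself, 1 at the start of Cdt1 and 55 away from starts. Regions at own starts had a median level of 3.91 and a median width of 920 bp, and those away from starts 1.82 and 360 bp. All promoter regions in the list had a median level of 3.89 and all other regions 1.89. Wider regions had higher levels, with a Spearman rho of 0.928 across the 68 regions and 0.912 across all 94963, a description in which regions share libraries. Set against regions of similar width and the same class, the own-start regions were higher than a median of 36.7% and those away from starts higher than a median of 53.9%. Of the 55 regions away from starts, 5 were above 90% of their similar-width regions, 3 at Piezo1 and 2 at Cd44. Another 4 were below 90% of theirs, 2 at Gja1, 1 at Mef2c and 1 at Piezo2. These are 9.09% and 7.27% of the 55, where the limits leave 10% at either end by construction.

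**Figure D3:**
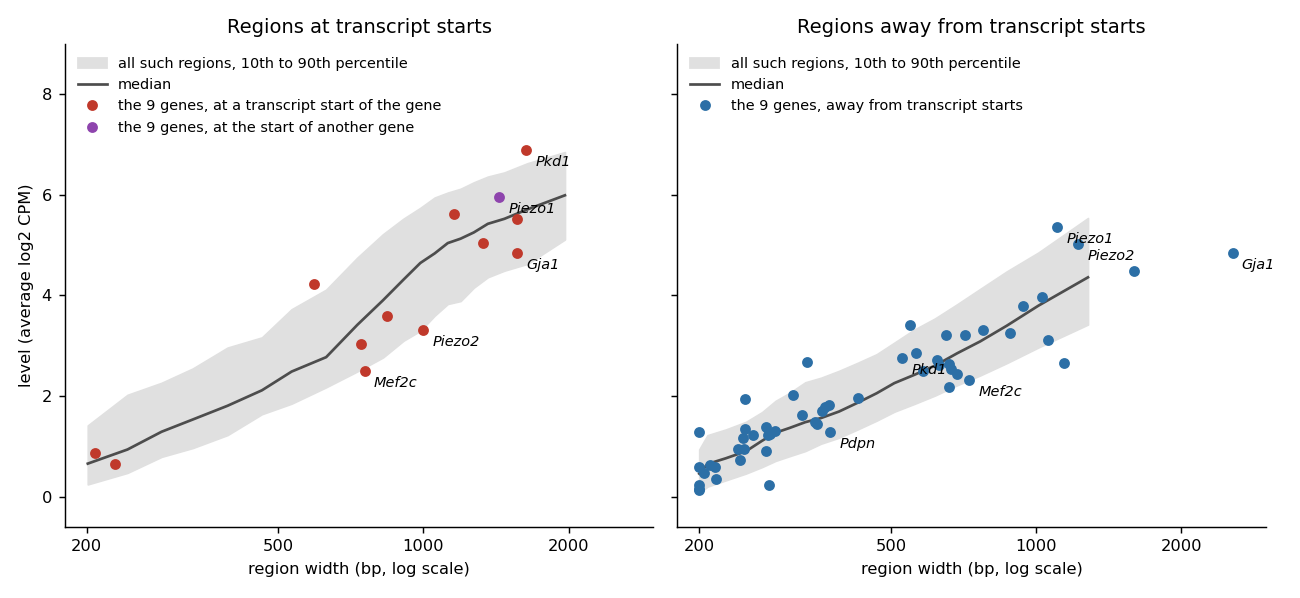
Region width in bp (log scale, horizontal) against level as average log2 CPM (vertical) for regions at transcript starts (left) and away from them (right); the grey band and line are percentiles over all regions of the class, coloured points are the 68 regions, and the names mark the highest region of selected genes in each panel. The Pkd1 promoter (6.90) lies above the band, and the widest Gja1 region (2561 bp, 4.85) lies beyond the widths at which the band ends.

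Motif matches in the 55 regions away from starts were close in number to those in regions of similar width. AP-1 sites were in 13 of them, 23.6% (95% Wilson interval 14.4 to 36.3), beside 23.3% in regions of similar width. For TEAD the share was 34.5% beside 30.6%, for RUNX 16.4% beside 19.1%, and for the HRE core 40.0% beside 38.4%. CTCF matches were in 10.9% beside 10.3%. MEF2 matches were in 5 regions, 9.09% (3.95 to 19.6) beside 5.57%, and the CArG box of SRF in 3, 5.45% (1.87 to 14.9) beside 2.84%. The cAMP response element (TGACGTCA) was found in 0 of the 55, with an upper bound of 6.53%, beside 0.579%. Each background share lay inside the interval of the 9 genes, and the intervals cover counting error only. The MEF2 matches lay at Mef2c, Gja1, Piezo2 and Pkd1. In the 13 regions at starts, HRE cores were in 9, or 69.2%, beside 78.7% of promoter regions of similar width.

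**Figure D4:**
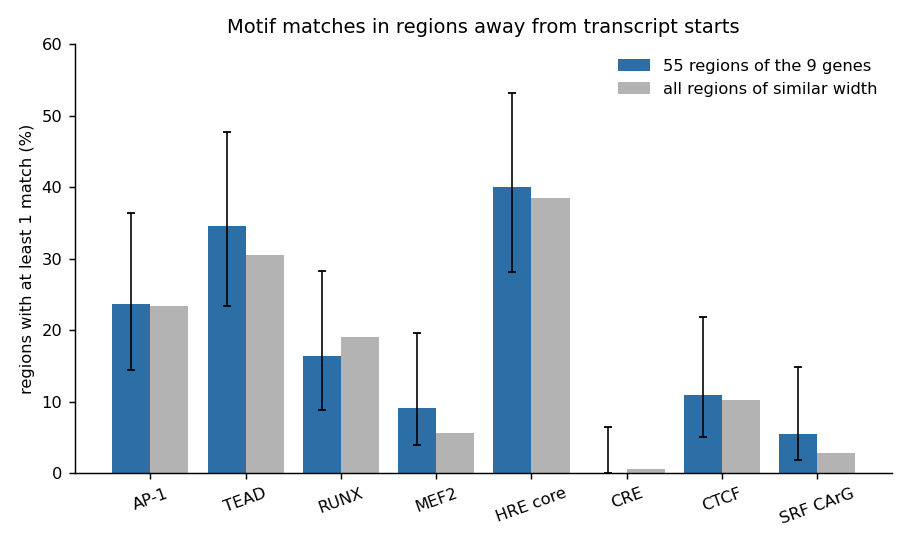
Vertical axis, percent of regions with at least 1 match on either strand; blue bars are the 55 regions of the 9 genes away from transcript starts with 95% Wilson intervals, and grey bars all such regions of similar width. AP-1 is at 23.6% beside 23.3% and MEF2 at 9.09% beside 5.57%, with the grey bar inside the interval for each motif.

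A list of 38 other genes of the same pathways gives the surroundings of the 9. All 38 had a region at an own start, against 8 of the 9 and 64.1% of coding genes. The median share of similar-length genes with fewer regions was 70.1% over the 38, with 26 above 50% and 10 above 90%, beside the 42.8% and 7.91% of all coding genes. The latter include genes without a region at an own start, and no comparison restricted to genes with one was made for the 38. The highest were Itga5 at 99.2% and Itgb3 at 98.9%, which encode integrin subunits, and Capg at 98.4%, which caps actin filaments. The lowest were Lcp1, an actin bundler, at 10.9%, Yap1, the coactivator of TEAD factors, at 15.1%, and Ift88, a protein of ciliary transport, at 20%. By role, the medians were 88.0% for the 7 genes of the YAP and MEF2 axis, 84.6% for the 7 of the dendrite cytoskeleton and surrounding matrix, 82.7% for the 7 adhesion genes and 58.3% for the 7 other channels, polycystins and purinergic receptors. They were 42.2% for the 2 mechanical response genes, 40.6% for the 6 other gap junction and pannexin genes and 21.9% for the 2 of the primary cilium. Pkd2, the partner of Pkd1, had 5 regions and a start level of 4.98, below the 6.90 of Pkd1. Panx2 had 2 regions and a start level of 0.56, below both of the other pannexins. Among the MEF2 family, Mef2a had 11 regions, Mef2b 7 and Mef2d 8, and all had a region at an own start, whereas Mef2c had 3. The counts describe 1 list and no set was tested.

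**Figure D5:**
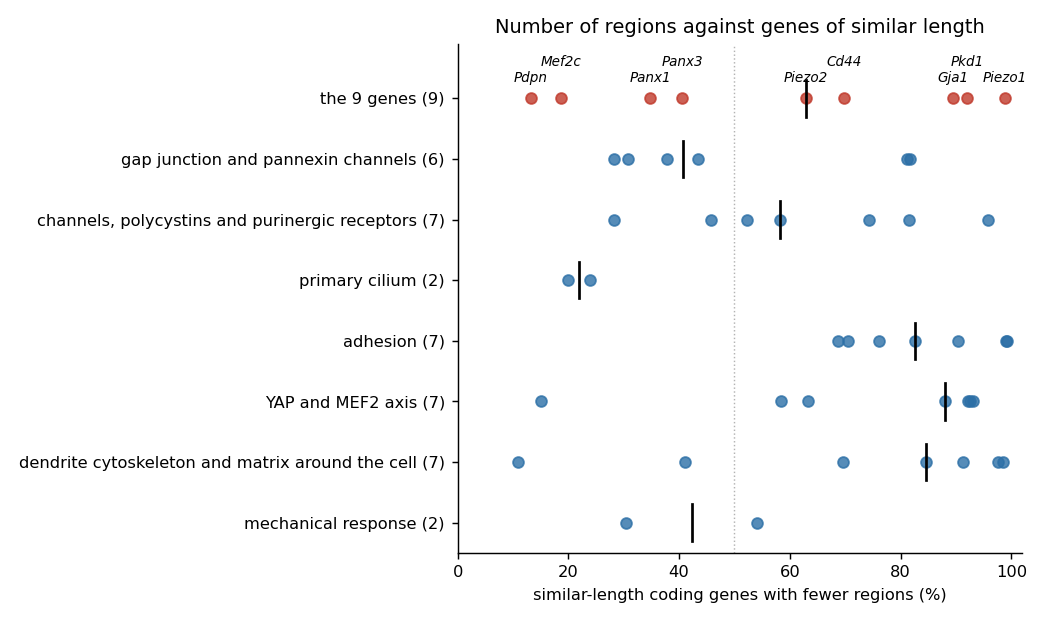
Each point is a gene, placed by the percent of coding genes of similar length that had fewer regions; the top row is the 9 genes, the rows below are the 38 other pathway genes by role, and vertical strokes are medians. The 9 genes span 13.2% to 98.8%, and the medians by role run from 21.9% (primary cilium) to 88.0% (YAP and MEF2 axis).

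Markers of the cell type were looked up in the same list. Dmp1, Fgf23, Bglap, Sp7, Runx2 and Col1a1 had a region at an own start and Phex, Mepe and Sost did not, which is 6 of 9 beside 64.1% of coding genes. Of genes of other lineages, Pparg (adipocyte) had one, and Ptprc (blood), Cdh5 (endothelium), Epcam (epithelium) and Myod1 (muscle) did not. Away from their starts, Sost had 5 regions, Phex 5 and Mepe 3, and Ptprc also had 3. Of coding genes of similar length, 91.0% had fewer regions than Sost, 23.1% than Phex, 50.5% than Mepe and 18.6% than Ptprc. Cdh5 had 1 region, and Epcam and Myod1 had 0. The start level of Pparg, 5.43, was above that of each osteoblast and osteocyte gene with one. As the list does not name the samples behind a region, it cannot be told whether MSC or osteocytes gave it.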

How the data were processed

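ATAC-seq of MPC2 cells was used in 4 groups by the labels: vehicle and FG-4592 in MSC and in osteocytes. The authors trimmed reads with Trim Galore, aligned them to mm10 with Bowtie2, removed duplicates with Picard 2.17.8, and dropped mitochondrial and poorly mapped reads. They called peaks with MACS2 2.2.7.1, merged them across samples, removed blacklisted regions, counted cuts with pyDNase, kept regions with at least 10 cuts in more than 1 sample, and normalised by TMM in edgeR 3.24.3. Whether read ends were shifted for the Tn5 offset is not given in the sources used here. The authors removed 1 library for quality. A merged region is at least as wide as each peak under it, and how many samples contributed to a region is not given in the list. The deposited list gives 1 log2 value per region, read as average log2 CPM over samples from its range and its sum after exponentiation; no header states it.

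Genes and transcripts were from GENCODE vM21 on GRCm38, and coordinates are 1-based. The members and lists were chosen with earlier results of these data known. Similar genes were protein-coding with a length within 20%, and similar regions had a width within 10% and the same class. A region within 1000 bp of a transcript start was of the promoter class. Motifs were searched on both strands, with overlapping matches joined to 1 site, and shares have 95% Wilson intervals. The RefSeq promoter table held 7 of the 9 genes, and the printed sequence was read from the GRCm38 genome. Windows before the start are printed for 5 genes, and those of the other 4 are not reported here. The rule for naming took all regions of a gene with 10 or fewer, otherwise those at own starts and the 5 highest others, and, of the other pathway genes, the 3 highest and 3 lowest by the share of similar-length genes with fewer regions. Pkd2, Panx2 and the Mef2 family were named beyond that rule, after their values were seen. Counting of regions and motifs was tested on simulated data, where 300 of 300 genes and 800 of 800 implanted motifs came back. Alternatives changed the upstream distance, the limits on width, level and length, the start window and the motif. With 1 value per region, no group was compared and no p-value was computed. Python 3.11.15 was used with numpy 2.4.6, pandas 2.3.3 and scipy 1.17.1.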

Additional observations from a re-analysis of the deposited data

How the results depend on the processing

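No paired analysis was possible because no result comes from a test: each region has 1 value. The total of 68 regions became 34 when regions had to be at least 500 bp wide and 36 when the level had to be at least 2, and it ranged from 55 (gene body only) to 87 (50 kb upstream) under the other settings. The median share of similar-length genes with fewer regions, 62.9%, became 59.9% with length within 10%, 60.4% and 68.2% with 10 and 50 kb upstream, 59.7% with the gene body only, 54.4% among genes with a region at an own start, 67.4% by summed CPM and 66.4% by bases covered. Over these settings, length within 50% and regions at least 500 bp wide, Piezo1 stayed at 92.7% or more, Pkd1 between 88.9% and 95.9%, Gja1 73.9% and 99.2%, Cd44 65.3% and 85.0%, Piezo2 54.4% and 68.9%, Panx1 17.4% and 49.9%, Panx3 13.3% and 62.1%, Mef2c 8.15% and 27.1% and Pdpn 0% and 16.3%. The 0% of Pdpn was fixed by the settings. It had 0 regions at least 500 bp wide, and with 1 region in all it could not exceed genes that each have one at an own start. The AP-1 share, 23.6%, was 9.09% in the central 200 bp of each region, where the background was 13.3%. The number of genes with a region at an own start was 7 or 8 in all settings. The depth of each sample is unknown, so a region missing from the list cannot be told apart from one too low to be called, and the cause of each shift was not tested.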

Other observations

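Upstream neighbourhoods differed among the genes. In the 100 kb before the gene start, Pkd1 had 15 regions, Piezo1 and Cd44 12 each, Piezo2 11, Panx1 4, Gja1 and Panx3 3 each, Mef2c 2 and Pdpn 0. These counts include the gene's own promoter region where it reached across the start, as it did at all but Mef2c and Pdpn. The same stretch holds 7 other coding genes at Pkd1 and 7 at Piezo1, and none at Cd44, Piezo2, Gja1 or Mef2c. Gene length and number of regions had a Spearman rho of 0.586 over the 9 genes and 0.487 over all coding genes, a description in which all points share the same libraries.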
